A study of Mus musculus with 12 samples.

Results

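The cytoplasmic ribosomal protein genes are the genes for the proteins of the 60S and 40S ribosomal subunits. They were chosen by symbol: an entry of the deposited table belonged to them if its RefSeq identifier maps to a mouse gene named Rpl or Rps plus a number, or Rplp0, Rplp1, Rplp2 or Rpsa. The kinases named Rps6k and annotated pseudogenes were left out. This gave 85 genes of 19708 distinct entries, 53 of the large subunit and 32 of the small subunit. No measured value entered the choice.

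Each ribosome needs about equal amounts of nearly all of these proteins, so their mRNAs are known for being abundant, long-lived and set to similar output. Most of them belong to the TOP mRNAs, which begin with a C followed by a run of pyrimidines (the 5′ terminal oligopyrimidine tract). Through this tract LARP1 and mTOR signalling switch their translation on and off with growth. A few members have a second gene copy, often made by reverse transcription of the mRNA, that is best known from the testis or from single tissues.

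The libraries come from mouse embryonic stem cells (ESCs) of the C57BL/6 strain, kept without serum, with LIF plus the inhibitors CHIR99021 and PD0325901. Embryoid bodies (EBs) are aggregates of differentiating cells that were grown from ESCs in serum medium on non-adherent plates. Their age is given as a range of days, with no day for any library. Both were wild type (WT) or Mettl3 knockout (KO), that is, without the enzyme that writes the m6A mark on mRNA, and were collected 0, 4 and 8 h after actinomycin, which halts transcription. This makes 4 conditions of 3 libraries, 12 libraries and 12 groups, with no replicate in any group. The labels do not say how many KO lines were used, which part of Mettl3 was deleted, or whether the 3 times of a condition share a culture. The libraries count transcript 3′ ends. In such bulk samples, fewer cells of a type and less RNA per cell cannot be told apart.

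The values are the authors' normalized levels, a signal on a scale that the sources used here do not state. The lowest column total was 3673848 (WT EBs, 8 h) and the highest 11086748. From the smallest values the libraries held about 208874 to 666805 read equivalents, the fewest in WT EBs at 8 h and the most in KO EBs at 0 h. Results are therefore given as deposited and, where that matters, with all column totals made equal. Entries of gene families that should be silent here, a list chosen after the data were seen, had a level above 0 for 6.8 to 9.61% of 1426 in ESCs and 26.72 to 36.19% in EBs. Mettl3 was at 251, 64.8 and 113 (WT ESCs, 0, 4 and 8 h), 98.1, 65.4 and 41.8 (KO ESCs), 175, 86.0 and 77.4 (WT EBs) and 16.8, 40.7 and 83.9 (KO EBs). Its KO minus WT difference did not pass in either cell type (limma adjusted p 0.311 in ESCs and 0.175 in EBs), and a 3′ tag outside the deleted part would check nothing. A list of 7 ESC markers summed to 76640 to 83620 in WT ESCs, 38807 to 43489 in KO ESCs, 9553 to 34293 for WT EBs and 26306 to 30759 for KO EBs, with none at 0. The 8 endoderm markers had a summed level of 13809 to 17884 in WT EBs, against 1166 to 1454 for KO EBs, and 3 blood markers to at most 84 in any library. The 7 fibroblast or feeder markers had 904 to 1912 in WT EBs, against 381 to 643 for KO EBs, the 5 mesoderm markers to 296 to 2623 and the 4 neural markers to 208 to 916 over all libraries.

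The start of a TOP mRNA carries the feature the family is known for, so start windows are shown for members that the results below turn on. Each holds 20 bases before the annotated start and 20 from it on, 5′ to 3′ on the transcribed strand, from RefSeq on GRCm38.p6. Capitals mark a C followed by at least 4 letters that are each C or T, where this C lies within 5 bases of the start. The upper group has the tract exactly at the start.

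Rplp2: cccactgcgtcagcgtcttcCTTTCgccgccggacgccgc (chr7:141447631-141447670, plus strand)
Rps15a: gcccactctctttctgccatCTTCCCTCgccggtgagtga (chr7:118116128-118116167, minus strand)

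The next windows belong to the 4 members on the X chromosome, of which only Rpl39 had a tract near the start.

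Rps4x: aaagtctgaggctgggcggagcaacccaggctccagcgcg (chrX:102189372-102189411, minus strand)
Rpl36a: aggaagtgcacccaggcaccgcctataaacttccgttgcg (chrX:134585634-134585673, plus strand)
Rpl39: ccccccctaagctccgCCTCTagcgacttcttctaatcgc (chrX:37085203-37085242, minus strand)
Rpl10: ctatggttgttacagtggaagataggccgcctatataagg (chrX:74270796-74270835, plus strand)

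The last windows belong to 3 autosomal copies of X-linked members, none with a tract that begins within 5 bases of the annotated start. In Rpl39l such a run ends at the base before the start, but its first C lies farther upstream.

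Rpl10l: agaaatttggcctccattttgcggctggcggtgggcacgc (chr12:66284382-66284421, minus strand)
Rpl36al: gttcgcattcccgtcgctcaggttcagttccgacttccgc (chr12:69184048-69184087, minus strand)
Rpl39l: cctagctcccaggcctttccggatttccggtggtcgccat (chr16:10170208-10170247, plus strand)

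The RefSeq table held a start for 65 of the 85 members. The tract stood at the annotated start of 14 of the 65 (21.5%), against 813 of 27025 genes in the table (3.01%). Beginning within 5 bases of the start it was found for 30 members (46.2%) and 5718 genes (21.2%). The search used the transcribed strand only. These libraries read 3′ ends and did not measure starts, so a missing tract says only that these letters are not at the annotated position.

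The 85 members made up 9.52, 11.8 and 12.5% of the summed level of WT ESCs (0, 4 and 8 h, the order used throughout), and of KO ESCs 9.16, 10.4 and 11.5%. In WT EBs the share was 10.9, 12.5 and 10.4%, and in KO EBs 11.4, 13.2 and 13.5%. The share was thus higher at 4 h than at 0 h in all 4 conditions, and WT EBs were the condition whose share was lower at 8 h than at 0 h. The highest mean level over the 12 libraries was that of Rplp0 (66880.0 in the deposited unit), followed by Rplp2, Rps20, Rpl4, Rplp1 and Rpl32 (27135). Levels count 3′ ends, so each transcript gives its tags whatever its length. Rplp0, Rplp1 and Rplp2 form the stalk that recruits elongation factors, and Rpl4 lines the exit tunnel of the large subunit. The lowest was Rpl3l, the copy of Rpl3 best known from striated muscle, with a mean of 70.6 and 1.2 to 11.6 read equivalents per library. All 85 members passed the filter on low levels (a mean of at least 42.9).

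**Figure D1:**
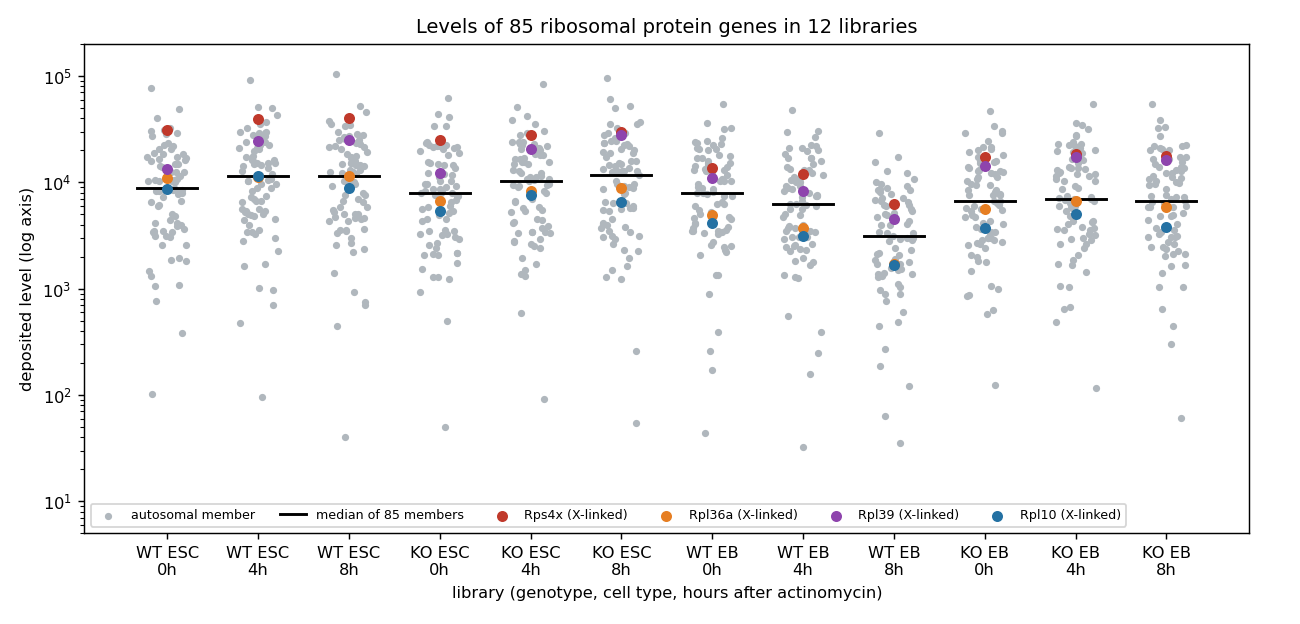
Levels of the 85 members in the 12 libraries, on a log axis in the deposited unit; each grey point is an autosomal member, coloured points are the 4 X-linked members and black lines are medians. The coloured points sit lower against the median in WT EBs than in WT ESCs, and the whole cloud is lowest in WT EBs at 8 h.

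Differences in level were tested with limma on log2 levels, as the mean over 0, 4 and 8 h, and a member was called where the adjusted p was under 0.05. The error is limma's standard error (SE), which rests on how far libraries lie from a straight line over time fitted per condition. EBs were compared with ESCs in WT cells to see what differs after differentiation. Of the 85 members 77 fell and 0 rose, where 29.1% of the 12704 entries tested fell and 3.49% rose. The median over members was -0.87, and over all entries -0.50. With equal column totals the picture was different: 10 members were lower and 4 higher (backgrounds of 4.81 and 14.7%), with a median of 0.04 over members and 0.42 over all entries. The general fall was thus not seen with equal totals, while the member median was below that of all entries on both scales. As deposited, the fall was smaller at 0 h. At 0 h alone the deposited median was -0.15 over members and -0.29 over all entries tested, and at 8 h alone -1.70 and -0.74. With equal totals the member medians were 0.26 at 0 h and -0.24 at 8 h. These single libraries carry no test. Under each of the 4 scalings tried 9 members were called lower: Rpl10l, Rpl7l1, Rpl39l, Rps4x, Rpl36a, Rpl10, Rpl36al, Rpl39 and Rps3a1. Entries so called among all were not counted, but they lie within the 651 of 13523 (4.81%) called lower with equal totals. Leaving out WT EB 0 h, or WT EB 8 h, 43 members were lower as deposited. In each of these fits the WT EB level is that of 4 h alone, and no share of all entries stands beside the 43.

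Among the 9 are the 4 members on the X chromosome, which were grouped by chromosome after their values were seen. They sit in different places on the ribosome: Rps4x is a 40S protein, Rpl10 completes the 60S subunit, Rpl36a lies near the E site and Rpl39 lines the exit tunnel. Rps4x was at 31108, 39059 and 40471 in WT ESCs, and at 25024, 27729.9 and 29890.2 without Mettl3. In WT EBs its level was 13742, 11923 and 6295, and in KO EBs 17390.1, 18565 and 17693. The ESC libraries were all above the EB libraries, and the WT EBs were below the KO EBs without overlap. Its difference between WT EBs and WT ESCs was -1.86 ± 0.14 (log2, SE; adjusted p 6.02e-07), and -0.95 ± 0.09 with equal totals (adjusted p 1.09e-05).

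Rpl36a was at 10862, 11224 and 11386 in WT ESCs, and at 6609, 8349.6 and 8853 in KO ESCs. It was at 4908, 3739.8 and 1699 in WT EBs, and at 5579.6, 6679.7 and 5913 in KO EBs. The WT ESCs were highest and the WT EBs lowest, with no overlap of either with any other condition, and the difference between them was -1.82 ± 0.17 (adjusted p 2.69e-06). Rpl10 was at 8661, 11399.8 and 8831 in WT ESCs, 5339, 7658 and 6533 in KO ESCs, 4151, 3111 and 1673 in WT EBs, and 3739.6, 5035 and 3823 in KO EBs. It too was highest in WT ESCs (EB minus ESC in WT -1.77 ± 0.20, adjusted p 1.36e-05), while its WT and KO EB libraries overlapped. Rpl39 was at 13479, 24665.5 and 24783 in WT ESCs, 12367, 20459 and 27671 in KO ESCs, 11022.5, 8334 and 4536.5 in WT EBs, and 14311.5, 17174 and 16295.5 in KO EBs. Only the WT EBs stood below all other conditions, by -1.43 ± 0.16 against WT ESCs (adjusted p 1.25e-05). The calls of Rps4x, Rpl36a and Rpl10 were kept when any 1 of the 12 libraries was left out.

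The share of the 4 X-linked members in the summed level of the 85 does not depend on how libraries are scaled. WT ESCs had 6.11, 6.6 and 6.78%, and KO ESCs 5.16, 5.63 and 5.73%. In WT EBs it was 3.74, 3.59 and 3.71%, and in KO EBs 5.08, 5.23 and 5.17%. The 3 WT EB libraries were below the other 9, also at 0 h, before actinomycin had acted. At 0 h Rps4x took 1.52% in WT EBs against 2.97% in WT ESCs, Rpl36a 0.54 against 1.04% and Rpl10 0.46 against 0.83%. Rpl39 differed little between these 2 libraries, with 1.22 against 1.28%. In KO EBs at 0 h Rpl39 took 1.77%. The 3 WT ESC libraries were above the other 9. Rps4l, a copy of Rps4x outside the 85, was higher in KO than in WT libraries of both cell types. The part of reads shared with Rps4x in these shares was not tested. The median difference between WT EBs and WT ESCs was -1.80 over the 4 X-linked members and -0.85 over the 81 autosomal ones (-0.89 and 0.06 with equal totals). Of 423 X-linked entries that are no ribosomal protein genes, 52.0% were called lower, with a median of -1.07. Of 12129 autosomal ones 27.9% were called lower, with a median of -0.48. With equal totals these medians were -0.18 and 0.44. Xist, the RNA that coats an inactive X chromosome, was at 77.4, 86.9 and 41.2 in WT EBs and between 52.7 and 173.8 in the other 9 libraries. The endoderm markers were also highest in WT EBs, as given above, and their part in the result was not tested.

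**Figure D2:**
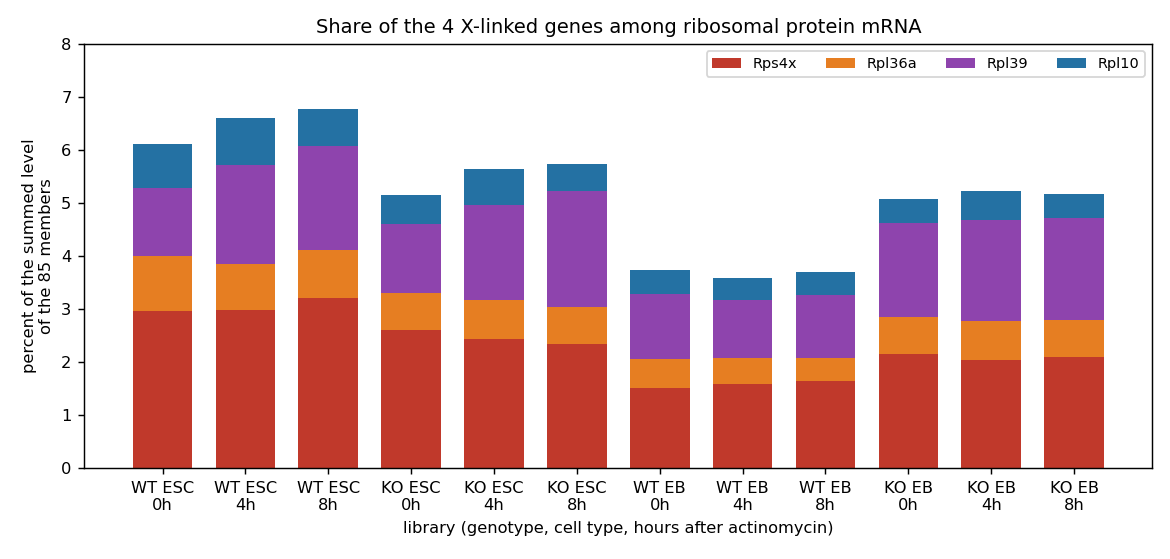
Percent of the summed level of the 85 members taken by Rps4x, Rpl36a, Rpl39 and Rpl10 in each of the 12 libraries, as stacked bars. The 3 WT EB bars end between 3.59 and 3.74%, below the KO EB bars (5.08 to 5.23%) and the ESC bars (5.16 to 6.78%).

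In KO cells EBs were compared with ESCs in the same way. As deposited, 29 members fell and 0 rose (23.2 and 0.929% of all entries), with a median of -0.35 over members and -0.61 over all entries. With equal totals 13 members were higher and 0 lower (1.55 and 0.732% of all entries), with medians of 0.34 and 0.09, and none of the 29 calls was shared. The direction of the family as a whole in KO cells is thus set by the scaling. Among the largest falls as deposited were Rpl7l1 (-1.28 ± 0.24, adjusted p 0.00285) and Rpl39l (-1.13 ± 0.25, adjusted p 0.00669), followed by Rps29 (-0.97), Rpl36al (-0.91) and Rpl24 (-0.73). With equal totals Rpl4 (0.81 ± 0.14, limma adjusted p 0.00712), Rpl13 (0.75) and Rps27l (0.74) were the highest. The counts that follow describe the members only, with no share of all entries beside them. As deposited, limma called 0 members without KO EB 0 h or KO EB 8 h, 6 without KO ESC 0 h or KO ESC 8 h, 15 without KO ESC 4 h and 19 without KO EB 4 h.

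KO and WT EBs were compared to see what loss of Mettl3 changes in differentiating cells. Of the 85 members 19 rose and 0 fell (7.66 and 1.56% of all entries tested), with a median of 0.38 over members and 0.09 over all entries. With equal totals 13 were higher and 1, Rps26, lower (backgrounds of 4.58 and 2.61%), with medians of 0.14 and -0.16. The 12 called higher under all 4 scalings were Rpl10l, Rpl39l, Rps15a, Rps2, Rps27l, Rpl34, Rpl39, Rpl36al, Rpl36a, Rps4x, Rpl32 and Rps21. All entries so called were not counted, but they lie within the 619 of 13523 (4.58%) called higher with equal totals. At 0 h alone the median difference over members was -0.22, against -0.18 over all entries tested, and at 8 h alone it was 1.07 against 0.38, with all 85 members higher in KO EBs. With equal totals these member medians were 0.01 and 0.31. Of the 12 named above, Rps21 (-0.02), Rpl36al (0.06) and Rpl36a (0.18) differed least at 0 h as deposited, against 1.82, 2.29 and 1.79 at 8 h. Rpl10l (3.32), Rpl39l (1.25) and Rps15a (1.04) differed most at 0 h. These are single libraries and carry no test. The endoderm markers were lower in KO EBs for 6 of 6 tested, as was 1 of 4 fibroblast or feeder markers (Thy1, -1.76). Of the 7 ESC markers 4 were higher in KO EBs (3 with equal totals), namely Nanog (2.33), Zfp42 (1.98), Esrrb (1.89) and Sox2 (1.71). These are means over the 3 times. At 0 h Nanog was at 963 in WT and 2542 in KO EBs, Zfp42 at 1717 and 2877, and Sox2 at 2007 and 2675. Esrrb was then at 1852 and 1771, and the 7 markers summed to 34293 in WT and 30270 in KO EBs. The part of cells with these markers in the members' differences was not tested.

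Rpl10l, an autosomal copy of Rpl10 known for standing in for it in male germ cells, had the largest difference of the family. WT EBs had it at 173, 246 and 64.0, and KO EBs at 1807, 1675 and 2047. The 64.0 is worth 3.6 read equivalents (95% counting interval of the level 16 to 170.9) and is under the 95th percentile of the silent families in that library (71.4). The lowest KO EB library was above the highest WT EB library, and the difference was 3.62 ± 0.31 (adjusted p 4.27e-06). Rpl39l, the autosomal copy of Rpl39, was at 259, 157 and 120.3 in WT EBs and at 629, 678 and 639 in KO EBs. Its groups did not overlap either, with a difference of 1.88 ± 0.25 (adjusted p 0.000217).

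Rps15a, a small-subunit protein with a tract at its start, was at 10361, 8696 and 5015 in WT EBs and at 21308, 20905 and 20118 in KO EBs. Every KO library was above every WT library, by 1.44 ± 0.13 (adjusted p 1.05e-05). Rps2, which lines the mRNA entry tunnel, was at 3474, 2351 and 1359 in WT EBs and at 4719.99, 6339 and 5883 in KO EBs (1.33 ± 0.19, adjusted p 0.000311). Rpl34 was at 10223, 8326 and 3985 in WT EBs and at 16012, 16199.5 and 13949 in KO EBs (1.14 ± 0.15, adjusted p 0.000238). Rps27l, a copy of Rps27 and a p53 target, was at 5054, 3677 and 2123 in WT EBs and at 7621, 8909 and 7011 in KO EBs (1.20 ± 0.20, adjusted p 0.0013). For Rps2, Rpl34 and Rps27l too, all KO EB libraries were above all WT EB libraries. The calls of these 6 genes were kept when any 1 of the 12 libraries was left out. The counts that follow describe the members only, unless a share of all entries stands beside them. Without both EB libraries of 8 h only Rpl10l (adjusted p 0.0094) and Rps15a (adjusted p 0.0097) were called. The number called was 9 without the WT EB library of 0 h or of 8 h, 35 without that of 4 h (7.023% of all entries higher), and 11 without any 1 of the KO EB libraries.

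**Figure D3:**
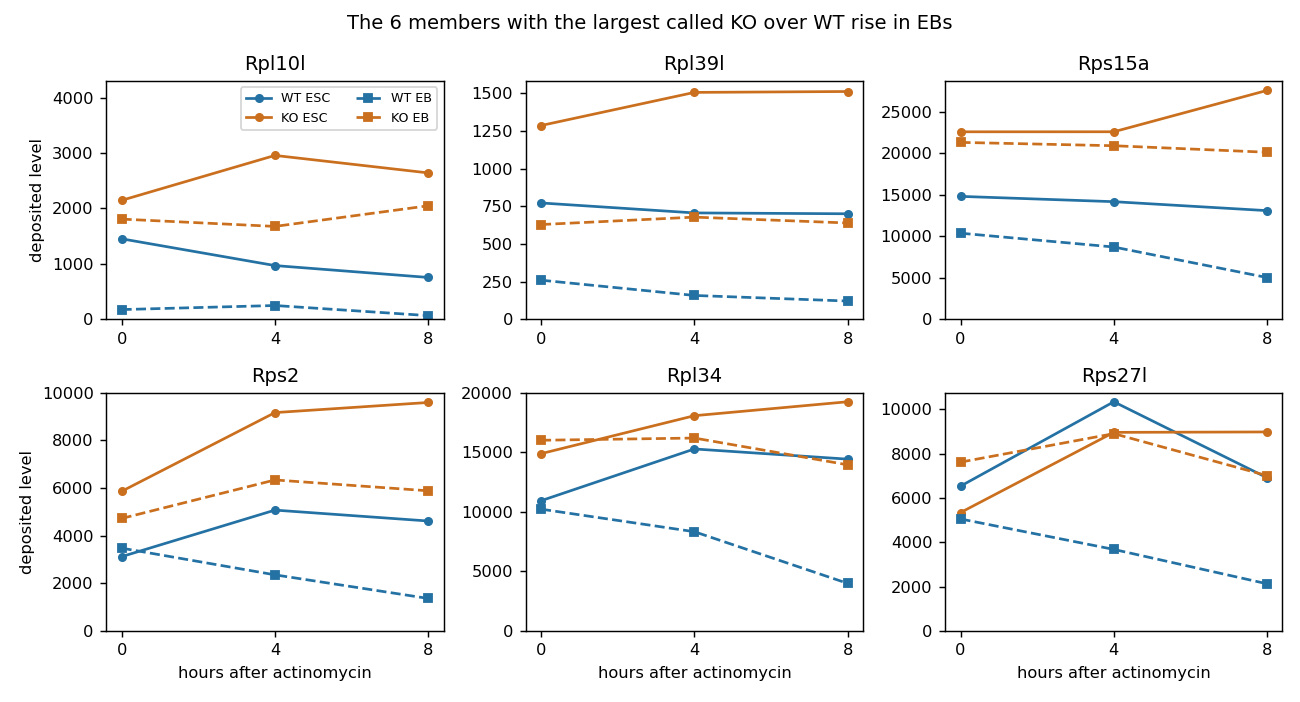
Deposited levels over hours after actinomycin of the 6 members with the largest called rise in KO EBs; solid lines are ESCs, dashed lines EBs, blue WT and orange KO, each point 1 library. In every panel the dashed blue line (WT EBs) lies below the dashed orange one (KO EBs), and for Rpl10l it runs between 64.0 and 246.

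The same comparison in ESCs asks what loss of Mettl3 changes in the naive state. Of the 85 members 4 rose and 4 fell (10.9 and 3.27% of all entries), with a median of -0.13 over members and 0.18 over all entries. As deposited, the share that fell was thus near that of all entries, and the share that rose was below it. With equal totals 5 were higher and 14 lower (9.61 and 3.67% of all entries), with medians of -0.14 and 0.15. The 7 ESC markers did not move together: Dppa5a (-1.66), Tdgf1 (-1.50) and Pou5f1 (-0.97) fell in KO ESCs, Sox2 rose (1.65), and Zfp42 (0.80), Esrrb (0.43) and Nanog (0.28) did not pass. Their part in the members' differences was not tested. The 4 that rose were Rpl10l (1.32 ± 0.31, adjusted p 0.00959), Rpl39l (0.97 ± 0.25, adjusted p 0.018), Rps2 (0.94 ± 0.19, adjusted p 0.00378) and Rps15a (0.79 ± 0.13, adjusted p 0.0014). Rpl10l was at 1451, 968 and 753 in WT ESCs and at 2145, 2957 and 2641 in KO ESCs. Rps15a was at 14800.3, 14161 and 13081 in WT ESCs and at 22584, 22589 and 27576 in KO ESCs. Rpl39l was at 772, 706 and 700.1 in WT ESCs and at 1286, 1506 and 1512 in KO ESCs, and Rps2 at 3116, 5071 and 4613 against 5860.4, 9168 and 9594. For all 4 genes the lowest KO ESC library was above the highest WT ESC library.

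The 4 that fell in KO ESCs were Rpl24 (-0.67 ± 0.19, adjusted p 0.0309), Rpl7a (-0.66 ± 0.17, adjusted p 0.0195), Rpl22l1 (-0.57 ± 0.17, adjusted p 0.0398) and Rps3a1 (-0.54 ± 0.16, adjusted p 0.0345). Rpl24, a 60S protein at the face that joins the 40S subunit, was at 8515, 7031 and 7661 in WT ESCs and at 6523, 4272 and 4114 in KO ESCs. Rpl7a was at 5980.2, 7431 and 7669 against 3575, 4422 and 5431, and Rps3a1 at 18363, 22536 and 21418 against 12144, 15481 and 15281. Rpl22l1, the copy of Rpl22, was at 5077, 5568 and 4643 against 2589, 3896 and 3974. All KO ESC values were below all WT ESC values for these genes, yet their calls depended on single libraries. Counts of members called without single libraries are given below with no share of all entries. Rpl24 and Rps3a1 lost theirs without any 1 of the 6 ESC or the 3 KO EB libraries, Rpl7a without any 1 of the ESC libraries, and Rpl22l1 without any 1 of the KO EB libraries or of the ESC libraries other than KO ESC 4 h. Rpl10l lost its call without the 0 h or 8 h library of either genotype, Rpl39l without these or KO ESC 4 h, Rps15a without KO ESC 0 h or 8 h and Rps2 without WT ESC 0 h or 8 h. The number called fell to 1 without any of WT ESC 0 h, WT ESC 8 h, KO ESC 0 h or KO ESC 8 h. It was 4 without WT ESC 4 h or KO ESC 4 h, 5 without any 1 of the KO EB libraries, and 15 without any 1 of the WT EB libraries.

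The difference between the KO effect in EBs and that in ESCs was tested as an interaction. It was higher in EBs for 9 members and lower for 0 (1.5 and 1.35% of all entries), with a median of 0.50 over members and -0.05 over all entries. All 4 X-linked members were among the 9: Rpl36a (1.44 ± 0.23, adjusted p 0.00259), Rps4x (1.24 ± 0.19, adjusted p 0.00195), Rpl39 (1.17 ± 0.22, adjusted p 0.00796) and Rpl10 (1.15 ± 0.28, adjusted p 0.0373). Of the 81 autosomal members 5 were called, namely Rpl10l (2.30 ± 0.43, adjusted p 0.00777), Rps27l, Rps3a1, Rpl7a and Rpl32. Of X-linked entries that are no members 8.98% were called higher, against 1.18% of autosomal ones. Rps4x, Rpl36a and Rpl10 had KO minus WT values of -0.42, -0.50 and -0.57 in ESCs (log2), short of the threshold as deposited (adjusted p 0.0533, 0.0559 and 0.0673) and past it with equal totals. With equal totals the same 9 members were called (1.15% of all entries higher and 1.94% lower), and with median-ratio scaling Rpl7a was not. The call of Rps4x was kept without any 1 library and that of Rpl36a was lost without KO ESC 8 h. Rpl39 and Rpl10l lost theirs without the 0 h or 8 h library of KO ESCs, WT EBs or KO EBs. Rpl10 and Rps27l lost theirs without those, and without WT ESC 4 h or KO EB 4 h. Counts given next describe the members only, unless a share of all entries stands beside them.

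The number called in this test was 2 without the 0 h or 8 h library of either EB genotype or without KO ESC 0 h, 1 without KO ESC 8 h, 4 without WT ESC 4 h or KO EB 4 h and 24 without WT EB 4 h (1.902% of all entries higher). Without both EB libraries of 8 h, 0 members were called by limma.

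**Figure D4:**
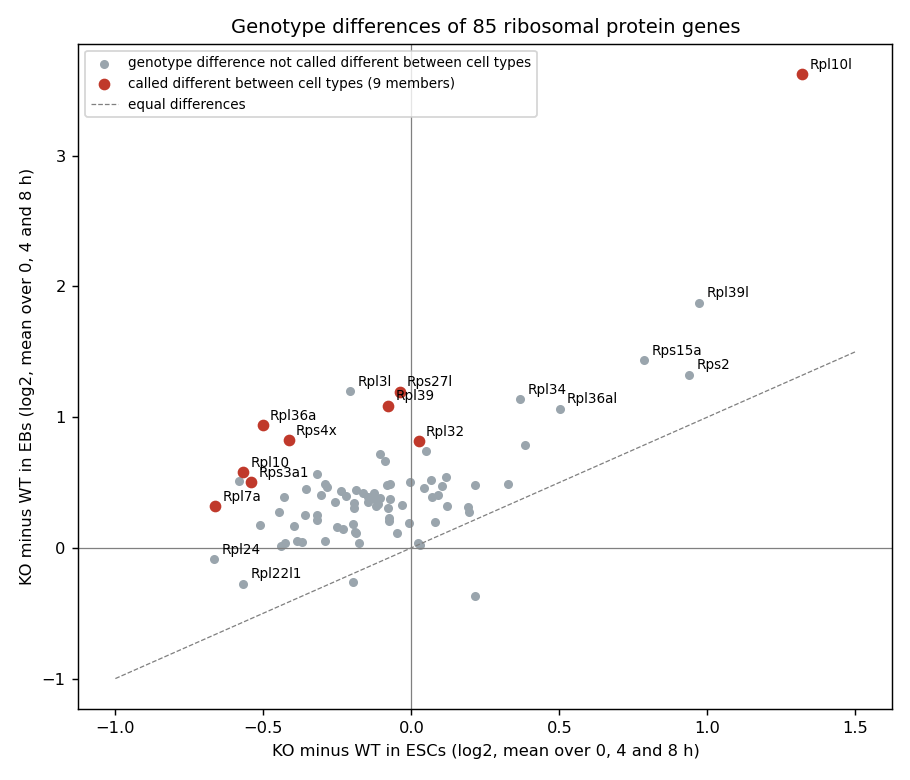
KO minus WT log2 difference of each of the 85 members in ESCs (horizontal axis) and in EBs (vertical axis), as means over 0, 4 and 8 h; red points are the 9 members called different between the cell types. Most points lie above the dashed line of equal differences, Rpl10l is highest, and the X-linked Rps4x, Rpl36a and Rpl10 lie left of 0 and above 0.

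Copies can be compared with the gene they stem from inside each library, which removes the scaling. Where sequences are close, reads could be split between copy and parent, so these ratios are uncertain. Rpl10l was at 16.8, 8.49 and 8.53% of the level of Rpl10 in WT ESCs, 40.2, 38.6 and 40.4% in KO ESCs, 4.17, 7.92 and 3.83% in WT EBs and 48.3, 33.3 and 53.6% in KO EBs. The KO libraries lay above the WT libraries in both cell types without overlap. Rpl36al was at 69.7 to 81.3% of Rpl36a in WT ESCs and 151 to 154% in KO ESCs, while the EB ranges overlapped (80.1 to 111% in WT and 101 to 113% in KO). Rpl39l was at 2.82 to 5.73% of Rpl39 in WT ESCs, 5.47 to 10.4% in KO ESCs, 1.89 to 2.65% in WT EBs, and for KO EBs 3.92 to 4.39%. It was the EB ranges that did not overlap here.

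Other copies behaved in other ways. Rpl7l1, a copy of Rpl7 that acts in ribosome assembly, was at 2552, 2278 and 2364 in WT ESCs, 1275, 1939 and 1645 in KO ESCs, 889, 551 and 189 in WT EBs and 989, 637 and 441 in KO EBs. It was lower in all EB than in all ESC libraries, by -2.38 ± 0.24 in WT (adjusted p 6.92e-06; -1.48 with equal totals). Its share of the level of Rpl7 was 15.5 to 23.8% in WT ESCs and 5.69 to 9.92% in WT EBs. Rps27l was at 163 to 353% of Rps27 over the 12 libraries, and Rpl22l1 at 17.1 to 49.1% of Rpl22. Rpl3l stayed at 1.13 to 6.21% of Rpl3, at too few read equivalents to read an order. Rpl32l, a protein-coding copy of Rpl32, was at 14.7 to 21.9% of Rpl32 in all 12 libraries, so its own changes cannot be told apart from shared reads.

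After actinomycin no new mRNA is made, so the level left at 4 and 8 h as a percent of 0 h describes persistence on the deposited scale. At 4 and 8 h the median over the 85 members stood at 124.5 and 118.8% for WT ESCs and at 122.7 and 129.0% for KO ESCs. It was 81.9 and 40.3% in WT EBs, and 111.9 and 102.2% in KO EBs. Values over 100% are on the deposited scale, whose construction was not given. Over all entries tested the medians were 81.9 and 76.4% in WT ESCs, 96.7 and 93.3% in KO ESCs, 71.5 and 49.0% in WT EBs, and 90.4 and 83.0% in KO EBs. The ratio of the 2 medians, which rescaling a library leaves as it is, was 1.52 and 1.56 in WT ESCs, 1.27 and 1.38 in KO ESCs, 1.15 and 0.82 in WT EBs and 1.24 and 1.23 in KO EBs. The members thus outlasted the median entry in 7 of the 8 libraries, and had less left than it in WT EBs at 8 h, the library with the fewest read equivalents. These are single libraries with no test.

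Members differed among themselves. Rpl39 had the highest share left in KO ESCs at 8 h (223.8%), and Rpl23a in WT ESCs at 8 h (206.4%). Rpl7l1 had the lowest in KO EBs (64.4 and 44.6%) and in WT EBs at 8 h (21.3%), and Rpl24 in KO ESCs at 4 h (65.5%).

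**Figure D5:**
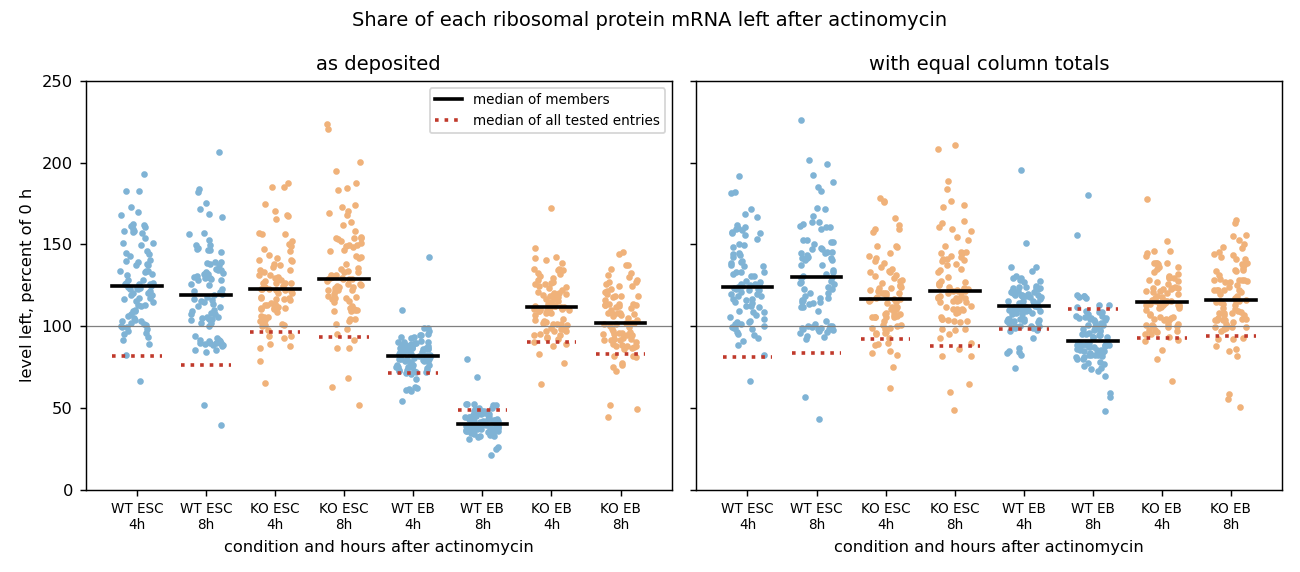
Level left at 4 and 8 h as a percent of the 0 h level of the same condition, as deposited (left) and with equal column totals (right); each point is 1 of the 85 members, black lines are their medians and red dotted lines the medians of all tested entries. The black line is above the dotted one in every column but WT EBs at 8 h, where it is 40.3% against 49.0% as deposited.

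Slopes over hours were tested in the same fit. Averaged over the 4 conditions, 9 members fell and 0 rose as deposited, where 21.4% of all entries fell and 0.236% rose. They included Rpl7l1 (-0.10 ± 0.03 per hour on the log2 scale, adjusted p 0.0152), Rpl24 (-0.08 ± 0.02, adjusted p 0.00929), Rpl23, Rps14, Rpl6, Rpl13a, Rpl8 and Rpl32. With equal totals 19 members rose and 0 fell (1.34 and 8.43% of all entries), and none of the 9 was among them. Among the 19 were the stalk proteins Rplp0 (0.05 ± 0.01, adjusted p 0.000448), Rplp1 and Rplp2, the laminin receptor protein Rpsa, and Rpl39 (0.07 ± 0.01, adjusted p 0.00199). Rplp0 was at 76957, 92543 and 103519 in WT ESCs, 61718, 84083 and 94947 in KO ESCs, 55090.5, 47782 and 28886 in WT EBs, and 47254, 54995 and 54786 in KO EBs. On the deposited scale its level was thus higher after actinomycin than before in 3 of the 4 conditions. In WT EBs, where it was lower, the column total also fell, from 8311484 at 0 h to 3673848 at 8 h. Counts given next without a percent describe the members only. The number that fell was 0 without WT EB 8 h, KO EB 0 h or KO EB 8 h, 1 without the 0 h or 8 h library of either ESC genotype, 6 without KO ESC 4 h or KO EB 4 h, 17 without WT EB 0 h (11.31% of all entries lower) and 13 without WT EB 4 h (21.89%). The calls of Rpl7l1 and Rpl24 both ended without WT ESC 0 h, WT EB 8 h, KO EB 0 h or KO EB 8 h. That of Rpl7l1 also ended without WT ESC 8 h or KO ESC 8 h, and that of Rpl24 without KO ESC 0 h.

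Slopes were also compared between conditions. Between EBs and ESCs limma called 0 members (0.00787% of all entries), although all 85 had a lower slope in EBs and 74 had an unadjusted p under 0.05 (1928 of all 12704 entries). With equal totals 74 of the 85 had a lower slope, 0 were called and 13 had an unadjusted p under 0.05 (1130 of all 13523 entries). The 3 with the smallest p were Rpl39 (-0.20 ± 0.03 per hour), Rps23 (-0.18) and Rps21 (-0.17), each with an adjusted p of 0.092. Without WT EB 0 h 34 members were called lower (1.335% of all entries), and without WT EB 4 h 32 were (1.554%). Between KO and WT ESCs 0 members were called (0.0394% of all entries; 0.00739% with equal totals) and 0 had an unadjusted p under 0.05. Between KO and WT EBs 6 members had a higher slope in KO as deposited (1.19% of all entries): Rpl36al (0.28 ± 0.05, adjusted p 0.0347), Rpl41, Rps21, Rpl26, Rps27a and Rplp2. With equal totals 0 were called, and 7 had an unadjusted p under 0.05, a count given without that of all entries. The number called was 43 without WT EB 4 h (3.503% of all entries higher), 23 without WT EB 0 h (1.098%) and 0 without any 1 of the other 10 libraries.

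Genes that work with the ribosomal proteins were taken from lists. Fau and Rack1, whose products include ribosomal proteins that go by other symbols, were lower in WT EBs than in WT ESCs (-0.57 and -0.91), though not with equal totals. As deposited, neither was called between KO and WT in either cell type. Of 26 translation factors and other TOP mRNAs tested, 23 fell and 0 rose in WT EBs against WT ESCs (29.1 and 3.49% of all entries), with a median of -1.09. The largest falls were Eif2s3x (-2.21 ± 0.19), a subunit of the initiation factor that brings the first tRNA, and the ADP/ATP carrier Slc25a5 (-2.10 ± 0.18). Both are X-linked. With equal totals 8 of the 26 were lower and 2 higher (4.81 and 14.7% of all entries). Between KO and WT EBs 4 of the 26 rose and 2 fell (7.66 and 1.56% of all entries). Among those that rose were Slc25a5 (1.12 ± 0.18, limma adjusted p 0.00111) and the elongation factor Eef1a1 (0.87 ± 0.11, adjusted p 0.000142). Vim (-1.54 ± 0.26, limma adjusted p 0.00125), which encodes vimentin, fell. At 0 h alone Slc25a5 was at 3774 in WT and 4662 in KO EBs, Eef1a1 at 73954 and 75369, and Vim at 1181 and 470. Between KO and WT ESCs 0 of the 26 rose and 3 fell (10.9 and 3.27% of all entries), and with equal totals 7 fell (3.67% of all entries).

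Of 35 genes of ribosome biogenesis tested, 32 fell in WT EBs against WT ESCs and 0 rose, where 29.1% of all entries fell (11 and 0 with equal totals, where 4.81% fell). The largest fall was that of Dkc1 (-2.42 ± 0.22, adjusted p 2.69e-06), the X-linked gene of the RNA pseudouridine synthase dyskerin. Between KO and WT, 12 rose and 0 fell in EBs, where 7.66% of all entries rose (8 and 0 with equal totals, 4.58%). In ESCs 9 rose and 2 fell, against 10.9 and 3.27% of all entries (9 and 4 with equal totals, 9.61 and 3.67%). The highest in both was Nop2, an rRNA methyltransferase, with 2.30 ± 0.22 in EBs and 2.20 ± 0.22 in ESCs. Rrs1, an assembly factor of the 60S subunit, followed with 2.19 ± 0.27 and 1.77 ± 0.27. These are means over the 3 times. At 0 h Nop2 was at 1260 in WT and 2689 in KO EBs, and at 1760 and 3496 in ESCs. Rrs1 was then at 580 and 862 in EBs and at 1029 and 1433 in ESCs. At 8 h it was at 54.9 in WT and 796 in KO EBs, and at 154 and 1748 in ESCs. Over time 23 of the 35 fell as deposited (21.4% of all entries) and 15 with equal totals (8.43%), with a median slope of -0.11 per hour against -0.02 over the ribosomal protein genes. Of 14 regulators of TOP mRNAs and mTOR signalling, 3 rose in KO EBs (7.66% of all entries) and 2 in KO ESCs (10.9%, so near the share of all entries), and 0 fell. Larp1, the protein that binds the tract, was higher by 0.92 ± 0.23 in EBs (adjusted p 0.0205; not called with equal totals, where 0 of the 14 were) and by 0.90 ± 0.23 in ESCs (adjusted p 0.0188). At 0 h Larp1 was at 1041 in WT and 1149 in KO EBs, and at 1003 and 1774 in ESCs. Of 5 genes of the p53 response, 3 rose in KO ESCs and 2 in KO EBs (10.9 and 7.66% of all entries), led by Phlda3 (2.00 ± 0.25 and 1.87 ± 0.25). These too are means over the 3 times. At 0 h Phlda3 was at 1555 in WT and 1859 in KO ESCs, and at 905 and 1791 in EBs. At 8 h it was at 201 in WT and 1985 in KO ESCs, and at 183 and 1186 in EBs. Trp53 itself had -0.73 in ESCs and -0.35 in EBs and was not called (limma adjusted p 0.108 and 0.578). What these genes responded to was not tested.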

How the data were processed

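The values the authors deposited, 1 column for each of the 12 libraries and 1 row per RefSeq transcript, are a normalized signal that is never negative; how it was scaled was not given. Bowtie, Bowtie2 (2.1.0), CASAVA (1.8.2) and mm10 appear in the submitters' processing notes. Of 19746 entries 38 identical duplicates were dropped; 19531 were matched to symbols in a RefSeq table (GRCm38.p6) and 102 in GENCODE, and 113 kept no symbol. Rpl34 and Rpl35a have 2 entries each, of which the higher was used. Levels were tested after adding 8.58 (1 ppm of the average library sum) and taking log2, with limma 3.58.1 in R 4.3.3, which understates changes of low genes. Entries with a mean of at least 42.9 (5 ppm) entered the fit, which has 8 coefficients (an intercept and a line over hours for each condition), 4 residual degrees of freedom and a trended prior worth 11.1 more. P-values are Benjamini-Hochberg adjusted over all 12704 entries, with a threshold of 0.05. With no replicates, they measure the scatter between these libraries, which may be technical. A read equivalent is a level divided by the value inferred to be 1 read; at least 99.84% of low values lay on whole fiftieths of it, and whole counts were not recovered. The 95% intervals are exact Poisson ones on read equivalents and cover counting error only. The script was tested on simulated data. Named members are, per comparison, up to 6 called that rose most and up to 6 that fell most, or, with none called, the 3 with the smallest p; also the 6 highest, the stalk genes and Rpsa, the copies, and up to 4 called genes per list. A few genes that these rules name are not reported here. Members and lists were chosen with earlier results of these data known. Alternatives were other scalings, pseudocount, filter, variance prior, time terms and left-out libraries.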

Additional observations from a re-analysis of the deposited data

Results flagged for a closer look

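The KO minus WT difference was larger in EBs than in ESCs for 9 members by limma's interaction term, adjusted over all entries tested. In log2 units the difference between the 2 effects was 2.3 for Rpl10l, 1.44 for Rpl36a, 1.24 for Rps4x, 1.24 for Rps27l, 1.17 for Rpl39, 1.15 for Rpl10, 1.04 for Rps3a1, 0.98 for Rpl7a and 0.79 for Rpl32. Rpl10l rose in KO cells of both types, by 1.32 in ESCs and 3.62 in EBs. Rps27l, Rpl39 and Rpl32 rose in KO EBs (1.20, 1.09 and 0.81), with values of -0.04, -0.08 and 0.03 in ESCs that did not pass. Rps4x and Rpl36a rose in KO EBs (0.82 and 0.94 over the 3 times, 0.34 and 0.18 at 0 h alone) and had negative values in KO ESCs. Rps4l, a copy of Rps4x that is not among the members, was higher in KO cells of both types. It was at 17214, 18293 and 16498 in WT ESCs and at 21430, 24697 and 28305 in KO ESCs. In WT EBs it was at 9749, 7964 and 2746, and in KO EBs at 16283, 17123 and 17304. The part of shared reads in the values of Rps4x was not tested. Rps3a1 and Rpl7a fell in KO ESCs, with 0.50 and 0.32 in KO EBs, short of the threshold, and Rpl10 (0.58 in EBs) passed in neither cell type. The WT EB libraries also held the endoderm markers (13809 to 17884 summed, against 1166 to 1454 in KO EBs), and the part these cells have in the 9 differences was not tested.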

How the results depend on the processing

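With no replicates, all errors are scatter around lines over time, and leaving out 1 library makes a condition's level that of fewer points. Counts of members called follow the order KO minus WT in ESCs, KO minus WT in EBs, EB minus ESC in WT, EB minus ESC in KO, interaction, mean slope, slope difference of KO and WT in EBs. As deposited they were 8, 19, 77, 29, 9, 9 and 6. Equal totals gave 19, 14, 14, 13, 9, 19 and 0, and the median turned to 0.04 for EB minus ESC in WT, 0.34 in KO and 0.025 for the mean slope. Equal totals without the members gave 17, 14, 13, 14, 9, 19 and 0, with these medians at 0.0399, 0.38 and 0.028. Median-ratio scaling gave 21, 12, 14, 2, 8, 19 and 0, with medians of 0.32 in KO and 0.041 for the mean slope, and mean slopes of 0.0001 for Rpl23, 0.0025 for Rps14 and 0.0035 for Rpl6. No filter gave 5, 14, 73, 18, 4, 2 and 0, and no variance trend 0, 3, 34, 0, 0, 0 and 0. Additive time terms, which give levels only, gave 1, 6, 41, 0 and 1. Without both EB libraries of 8 h the counts were 12, 2, 39, 3, 0, 0 and 0, with a median mean slope of 0.013. The causes of these shifts were not tested. Here and above, counts from alternative fits describe the members only, unless a share of all entries stands beside them.

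The share left changed as follows: equal totals gave 112.4 and 91.2% in WT EBs at 4 and 8 h and 115.8% in KO EBs at 8 h, and equal totals without the members 114.5, 90.7 and 118.6%. Median-ratio scaling gave 150.6 and 159.2% in WT ESCs, 118.8 and 86.8% in WT EBs and 124.7 and 126.6% in KO EBs. With the 50 highest other entries taken out of the total, the members' share was 11.015, 14.014 and 14.968% in WT ESCs, 10.622, 12.134 and 13.553% in KO ESCs, 12.545, 14.56 and 11.94% in WT EBs, and 13.178, 15.528 and 16.023% in KO EBs. Leaving out 1 library at a time gave 1 to 15, 9 to 35, 43 to 80, 0 to 34, 1 to 24, 0 to 17 and 0 to 43 members called in the same order (11 for KO minus WT in EBs without any KO EB library, 23 for the last without WT EB 0 h), 0 to 34 for the slope difference of EBs and ESCs (32 without WT EB 4 h) and 0 to 0 for that of KO and WT in ESCs. Without WT EB 8 h the median mean slope was 0.0034. No paired analysis was possible because the labels give no replicate numbers; the conditions share only their time points, which the fit with additive time terms treats as common to all. Depth limits Rpl3l and Rpl10l in WT EBs, with few read equivalents per library.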

Other observations

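With equal column totals 4 of the 85 members were higher in WT EBs than in WT ESCs, where 14.7% of all entries were. Among them were Rpl29 (1.23), Rpl13a (0.62) and Rps19 (0.44), as log2 differences called by limma. Rpl29, a 60S protein also known for binding heparin at the cell surface, was at 1047, 1016 and 938 (WT ESCs, 0, 4 and 8 h) and at 2089, 1257 and 759 in WT EBs. Its level was thus higher in WT EBs at 0 and 4 h and lower at 8 h as deposited, where it was not called. In KO EBs it was at 849, 1052 and 1033.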
